A study of Mus musculus with 21 samples.

Results

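Iron handling in the liver and its control by hepcidin were followed through 10 genes across all 21 mouse RNA-seq libraries of the series: Hamp, Hamp2, Hfe, Tfrc, Tfr2, Fth1, Ftl1, Slc40a1, Bmp6 and Id1. They were chosen by name, and all 10 were matched by gene symbol in each of the 3 deposited tables, out of 55145 genes listed in at least 1 table. By its title, the study asks whether STING, an adaptor of cytosolic DNA sensing, acts on hepatocyte pyroptosis in liver fibrosis through the NLRP3 inflammasome. There were 7 groups of 3 libraries.

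The first table holds primary wild-type mouse hepatocytes. In 3 libraries the cells received the NLRP3 inhibitor MCC950 (10 µM) 2 h ahead of lipopolysaccharide (LPS, 1 µg/mL, 6 h) and nigericin (10 µM, 30 min), an ionophore that activates NLRP3. The other 3 libraries received LPS and nigericin without the inhibitor, so both groups were stimulated. The second table holds whole liver from mice labelled Sting knockout given carbon tetrachloride (CCl4), from wild-type mice given CCl4, and from wild-type mice given oil, all by intraperitoneal injection. The sample labels give 6 weeks for these 3 groups, whereas the design text gives 8 weeks for the CCl4 model and names olive oil. The third table holds whole liver after 8 weeks of intraperitoneal thioacetamide (TAA). It compares mice labelled as having a deletion of Nlrp3 in hepatocytes (Nlrp3△Hep) with wild-type mice, so both groups had toxic injury. CCl4 and TAA are hepatotoxins used to induce fibrosis. Age, sex, strain and the driver of the hepatocyte deletion are not given in the sources used here, and no source states that each library is a different animal or culture. The p-values therefore reflect the variation among these libraries, which may be technical.

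Hepcidin, the product of Hamp, is a peptide hormone made mainly by hepatocytes that binds the iron exporter ferroportin and causes its loss from the cell surface, which lowers iron release into plasma. Its transcription is driven by bone morphogenetic protein (BMP) and SMAD signalling, with BMP6 as a ligand and the hemochromatosis proteins HFE and TFR2 as further inputs, and by STAT3 downstream of interleukin 6. Ferritin, transferrin receptor 1 and ferroportin are also controlled after transcription, by iron regulatory proteins that bind a hairpin called the iron-responsive element in their messages. This control acts on translation for an element in the 5′ UTR and on message stability for elements in the 3′ UTR.

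Mouse carries a hepcidin gene pair, Hamp and Hamp2, side by side on chromosome 7, and their upstream sequences are shown because the pair differ in a motif through which BMP signalling acts on hepcidin. The sequences are the minus strand of GRCm38.p6 from RefSeq, 150 bases that end just before the RefSeq start, at chr7:30944030-30944179 for Hamp and chr7:30924182-30924331 for Hamp2. Capitals mark the BMP-responsive motif GGCGCC and the STAT motif TTCNNNGAA of Hamp, searched on both strands, and the bases aligned with them in Hamp2.
Hamp: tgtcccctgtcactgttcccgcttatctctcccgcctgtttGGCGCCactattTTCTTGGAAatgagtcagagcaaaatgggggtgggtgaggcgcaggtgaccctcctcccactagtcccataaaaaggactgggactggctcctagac
Hamp2: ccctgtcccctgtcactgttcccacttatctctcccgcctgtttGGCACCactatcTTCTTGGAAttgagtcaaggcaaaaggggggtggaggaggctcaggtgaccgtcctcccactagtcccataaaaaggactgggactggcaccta
In Hamp the first base of GGCGCC lay at position -109 from the RefSeq start and that of TTCTTGGAA at position -97. Hamp2 held the same STAT motif and differed in the BMP-responsive motif by G4A, counted from 1 at the first base of GGCGCC. Over the whole RefSeq promoter windows the pair were 92.93% identical across 297 aligned bases. GGCGCC occurred in 11.866% of 32851 mouse promoter windows of the same length, TTCNNNGAA in 8.298%, and both in 0.645%, and the motifs do not overlap in Hamp. The Hamp and Hamp2 transcripts were 94.63% identical over 410 aligned bases, with a longest shared run of 87 bases, so how reads were split between them by the authors' counting is uncertain and Hamp2 values are given with that limit.

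The iron-responsive elements are shown because they set apart the genes read for iron storage and export from the gene read for iron uptake. They were read from GENCODE transcripts on GRCm38, as a C bulge and the loop CAGTGN between paired stems. Capitals mark the loop.
Fth1 5′ UTR, chr19:9982733-9982759 (+): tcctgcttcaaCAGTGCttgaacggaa
Ftl1 5′ UTR, chr7:45459780-45459806 (-): tcttgcttcaaCAGTGTttgaacggaa
Slc40a1 5′ UTR, chr1:45925466-45925492 (-): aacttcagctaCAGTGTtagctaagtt
Tfrc 3′ UTR, chr16:32631220-32631246 (+): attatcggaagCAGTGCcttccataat
Tfrc 3′ UTR, chr16:32631599-32631625 (+): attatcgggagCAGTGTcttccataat
Tfrc 3′ UTR, chr16:32631664-32631690 (+): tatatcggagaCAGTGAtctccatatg
Tfrc 3′ UTR, chr16:32631711-32631737 (+): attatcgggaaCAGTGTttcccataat
The pattern was found in 0.095% of 19915 genes with a 5′ UTR and in 0.506% of 20536 genes with a 3′ UTR. A match describes these letters and is not evidence of binding.

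The tables were normalized separately, so levels are compared within a table only. Hepatocyte libraries held 14883710 to 17157586 recovered reads, CCl4-table libraries 14353483 to 16684832 recovered reads, and TAA libraries 32096879 to 68913793 counts. Depth was separated by label in the TAA table. Livers labelled Nlrp3△Hep held 52200285, 57317349 and 68913793 counts and wild-type TAA livers 45900668, 43074512 and 32096879 counts. FPKM are fragments scaled by gene length and by a factor per library that the authors do not state. Sting1, listed as Tmem173, was at 3.42, 1.98 and 5.28 FPKM in the libraries labelled Sting knockout and at 6.10, 5.15 and 4.74 FPKM in wild-type CCl4 livers. Wild-type oil livers were at 0.885, 1.23 and 1.46 FPKM, below every library labelled Sting knockout. Replicate 3 with the knockout label lay within the range of wild-type CCl4 livers, and the label is used here only as a label. Nlrp3 had 23, 105 and 83 counts (0.08, 0.37 and 0.25 FPKM) in livers labelled Nlrp3△Hep against 36, 24 and 28 counts (0.15, 0.11 and 0.17 FPKM) in wild-type TAA livers. On both scales labelled replicate 1 lay below every wild-type liver and labelled replicates 2 and 3 lay above. Nlrp3 was thus not lower throughout in RNA of the whole liver, and Nlrp3△Hep too is used here only as a label. Replicate 2 of the libraries labelled Sting knockout stood apart in deposited FPKM, with Alb at 62021 FPKM against 26823 to 40579 FPKM in the other libraries of that label. All its FPKM also summed to more, 571737 against 389138 in replicate 1 and 325463 in replicate 3 of the label. The part of scaling in its high values was not tested. Hepatocyte markers were high in all 21 libraries. In the hepatocyte cultures 8 Kupffer cell markers summed to at most 1.01 FPKM with MCC950 and at most 0.400 FPKM without it. Recruited macrophage markers summed to 27.3 to 34.9 FPKM with MCC950 and 28.7 to 35.6 FPKM without it. Cholangiocyte markers summed to 57.6 to 66.9 FPKM with MCC950 and 52.7 to 64.9 FPKM without it. The red cell list summed to 10.6 to 11.1 FPKM with MCC950 and 12.4 to 13.0 FPKM without it. In bulk liver, fewer cells of a type and less RNA per cell cannot be told apart.

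On mm10, as the deposited tables give them, the hepcidin genes lie on the minus strand at chr7:30942368-30944032 (Hamp) and chr7:30922372-30924681 (Hamp2). The Hamp2 gene of the deposited tables begins further upstream than the RefSeq start, so the Hamp2 window shown above lies inside the gene as they annotate it. The sensors and regulators lie at chr13:23702034-23710854 (Hfe), chr5:137569840-137587481 (Tfr2), chr13:38345107-38500302 (Bmp6) and chr2:152736251-152737410 (Id1). The uptake, storage and export genes lie at chr16:32608920-32632794 (Tfrc), chr19:9982703-9985092 (Fth1), chr7:45457944-45459884 (Ftl1) and chr1:45908068-45926523 (Slc40a1).

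The members spanned a wide range of levels. In FPKM, which divides by length, Fth1 and Hamp were the most abundant members in both hepatocyte groups, at 3950 ± 271 and 2363 ± 146 FPKM with MCC950 and 3978 ± 318 and 2915 ± 609 FPKM without it (SD, n = 3 each). Hamp ranked 24 to 26 of 54532 genes with MCC950 and 17 to 19 without it. In the CCl4 table Hamp ranked 22 to 44 in livers labelled Sting knockout, 20 to 58 in wild-type CCl4 livers and 53 to 78 in oil livers. The ferritin chain genes, whose products form the iron storage shell, and Hamp were the 3 most abundant members in all 7 groups, and Bmp6 was the lowest member in each of the 7 groups. Tfr2, the hepatocyte receptor that senses iron-loaded transferrin, exceeded Tfrc, which takes transferrin iron into cells, in every library: the ratio of Tfrc to Tfr2 was at most 0.504. Fth1 FPKM of the TAA table cannot be set beside the other tables, since counts and FPKM there imply an Fth1 length 4.01 times that in the CCl4 table, and the other 9 members' lengths were equal.

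**Figure D1:**
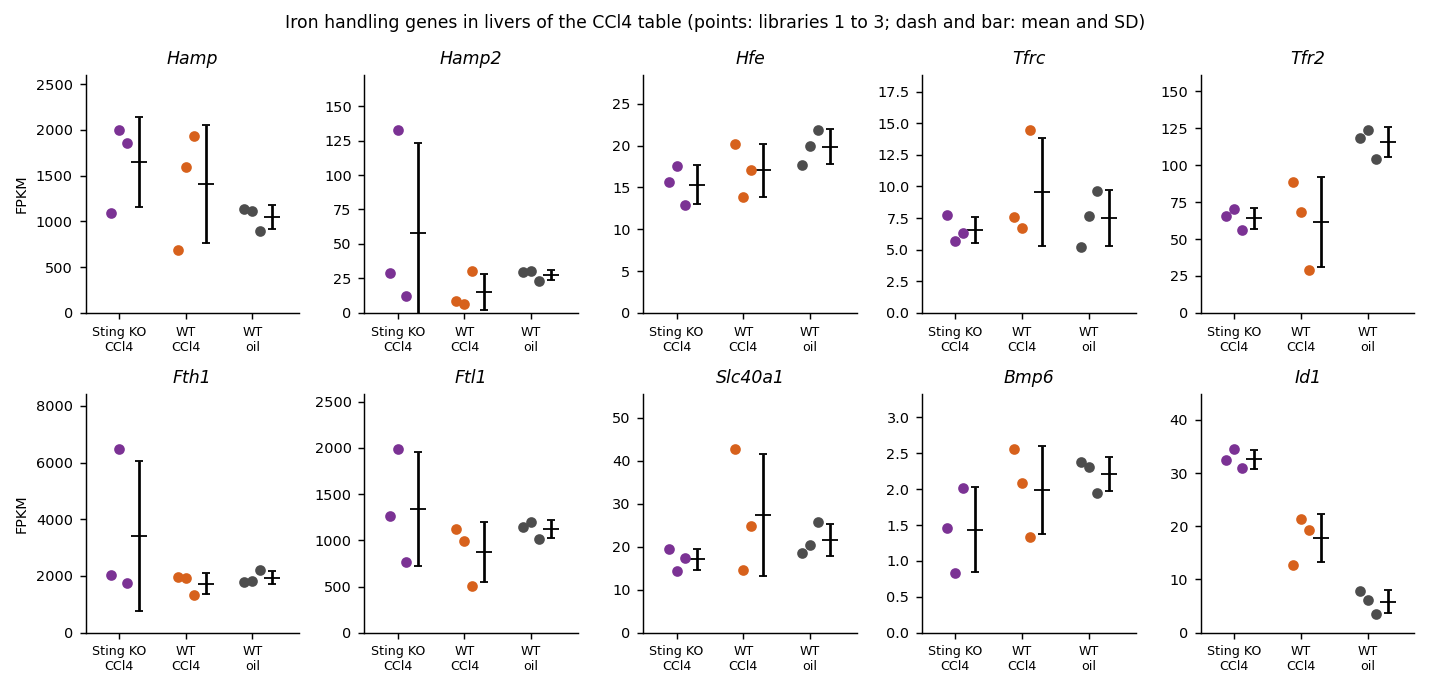
FPKM of the 10 genes (vertical axes from 0) in the 9 libraries of the CCl4 table, with livers labelled Sting knockout on the left, wild-type CCl4 livers in the middle and oil livers on the right. Points are libraries and the dash and bar are mean and SD, cut off at 0. Id1 values of the 3 groups do not overlap (30.9 to 34.5, 12.7 to 21.3 and 3.47 to 7.87 FPKM), whereas those of Hamp do.

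CCl4 against oil in wild-type liver was examined first, to ask how iron genes differ in injured liver. Id1, a direct BMP and SMAD target, rose, while hepcidin itself did not pass the test. Id1 was at 12.7, 21.3 and 19.2 FPKM in CCl4 livers and at 7.87, 6.13 and 3.47 FPKM in oil livers. Every CCl4 liver lay above every oil liver. The log2 fold change was 1.48 (SE 0.29, 95% interval 0.84 to 2.13, adjusted p = 0.00699). Id1 was the 1 member called among 10, beside 15.3% of 11511 genes called in either direction (9.19% higher and 6.15% lower), so the members' share of calls was no larger than the background. The call for Id1 was kept in all 19 alternative settings. Dividing-cell markers summed to 57.9 to 101 FPKM in CCl4 livers and 12.4 to 15.3 FPKM in oil livers. Stellate cell markers summed to 179 to 361 FPKM in CCl4 livers and 46.6 to 60.3 FPKM in oil livers. The part of these and other cell types in the Id1 value was not tested.

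Hamp was at 685, 1595 and 1936 FPKM in CCl4 livers and at 1140, 1110 and 899 FPKM in oil livers. The CCl4 livers lay on both sides of the oil livers, with the lowest value of all 9 libraries in CCl4 replicate 1. The log2 fold change was 0.30 with a 95% interval from -0.65 to 1.25 (adjusted p = 0.726), which leaves room for a change in either direction. Hamp2, the second hepcidin gene, was at 8.40, 6.29 and 30.2 FPKM in CCl4 livers and at 29.3, 30.2 and 23.5 FPKM in oil livers, and its groups overlapped (log2 fold change -1.14, adjusted p = 0.365).

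Among the sensors, Tfr2 was at 88.8, 68.1 and 28.8 FPKM in CCl4 livers and at 118, 124 and 104 FPKM in oil livers. All CCl4 livers lay below all oil livers, but the difference did not pass the test (log2 fold change -1.03, 95% interval -1.87 to -0.19, adjusted p = 0.0966). Without CCl4 replicate 1 it did (log2 fold change -1.36, adjusted p = 0.0423, where 5.03% of genes were called lower), and across all settings its adjusted p was 0.0423 to 0.420. Group ranges of 38.1% of all genes did not overlap in this comparison, 16.6% higher and 21.4% lower, against 2 of the 10 members, Id1 higher and Tfr2 lower. Hfe, whose product is an MHC class I-like partner of transferrin receptors, was at 20.2, 13.8 and 17.1 FPKM in CCl4 livers and 17.7, 20.0 and 21.9 FPKM in oil livers. Bmp6, which sinusoidal endothelial cells make, was at 2.55, 2.08 and 1.34 FPKM in CCl4 livers and 2.38, 2.31 and 1.95 FPKM in oil livers. Neither was called (adjusted p = 0.596 and 0.800), and endothelial markers summed to 81.0 to 92.3 FPKM in CCl4 livers and 82.7 to 86.6 FPKM in oil livers.

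Iron uptake, storage and export members overlapped between CCl4 and oil. Tfrc was at 7.58, 6.69 and 14.5 FPKM in CCl4 livers against 5.18, 7.65 and 9.63 FPKM in oil livers (adjusted p = 0.607). The ferritin heavy chain gene Fth1, whose product oxidises iron for storage, was at 1953, 1929 and 1313 FPKM in CCl4 livers against 1776, 1837 and 2208 FPKM in oil livers (adjusted p = 0.859). The light chain gene Ftl1 was at 1121, 994 and 507 FPKM in CCl4 livers against 1148, 1202 and 1018 FPKM in oil livers (adjusted p = 0.571). CCl4 replicate 3 was lowest for both chains and for Tfr2, and highest for Tfrc. Slc40a1, which encodes ferroportin, was at 42.7, 14.7 and 24.7 FPKM in CCl4 livers against 18.6, 20.4 and 25.8 FPKM in oil livers (adjusted p = 0.756), and the library with 42.7 FPKM also had the highest Kupffer cell marker sum, 1937 FPKM against 281 to 952 FPKM in the other 8 libraries. The part of these cells in the Slc40a1 value was not tested.

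Around these members, 77 further iron and heme genes in 10 lists were examined, of which 69 entered the fit. In CCl4 livers 6 were higher and 3 lower, beside 9.19% and 6.15% of all genes tested, so their share of calls was no larger than the background. Their median log2 fold change was -0.11, beside -0.08 over all genes tested. Of 11 iron uptake and transport genes tested, 3 rose and 1 fell. Lcn2, which encodes a siderophore-binding protein of injured epithelium, averaged 192 ± 153 FPKM in CCl4 livers and 7.53 ± 7.25 FPKM in oil livers (SD, n = 3 each; log2 fold change 4.79, adjusted p = 0.00255). The Lcn2 log2 fold change was 4.18 without CCl4 replicate 1, 3.80 without oil replicate 1 and 5.52 without oil replicate 3. Slc11a1, the phagosomal metal transporter of macrophages, averaged 13.4 ± 5.67 FPKM in CCl4 livers and 3.60 ± 0.519 FPKM in oil livers (1.58, adjusted p = 0.00542). The ferrireductase gene Steap3 fell (-0.89, adjusted p = 0.0368). Its relative Steap2, named here after its values were seen, rose (0.77, adjusted p = 0.0309), a call lost in 7 of 18 alternative settings with adjusted p-values of up to 0.104. Recruited macrophage markers summed to 710 to 1002 FPKM in CCl4 livers against 117 to 158 FPKM in oil livers, and neutrophil markers to 44.2 to 102 FPKM against 3.57 to 15.4 FPKM in oil livers. Their part in the Lcn2 and Slc11a1 values was not tested.

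Of 13 heme uptake, breakdown and export genes, Hmox1, which encodes the inducible heme oxygenase, rose and the heme and porphyrin exporter gene Abcg2 fell. Hmox1 averaged 70.9 ± 42.9 FPKM in CCl4 livers and 13.5 ± 3.09 FPKM in oil livers (SD, n = 3 each; log2 fold change 2.16, adjusted p = 0.0057). Abcg2 averaged 8.07 ± 0.609 FPKM in CCl4 livers and 17.0 ± 5.03 FPKM in oil livers (-0.96, adjusted p = 0.0201). Of 9 heme synthesis genes, Alas2, the erythroid first enzyme, fell (-1.47, adjusted p = 0.0274), while the red cell list, which includes Alas2, summed to 271 to 1093 FPKM in CCl4 livers and 349 to 968 FPKM in oil livers.

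Of 12 further BMP and SMAD regulators tested, 1 was called: Fgl1, whose product is a BMP antagonist that lowers hepcidin, rose by 1.36 (adjusted p = 0.0492). Tmprss6, which encodes the protease that cleaves the BMP co-receptor hemojuvelin and so restrains hepcidin, averaged 106 ± 41.0 FPKM in CCl4 livers and 227 ± 23.2 FPKM in oil livers, just short of the threshold (-1.18, adjusted p = 0.0504; 0.0193 with replicate number as a block). It was called lower in 9 of 19 alternative settings, with adjusted p-values of 0.00733 to 0.229. Hjv, the hemojuvelin gene, had a log2 fold change of -0.76 (adjusted p = 0.231). None of 6 further BMP and SMAD target genes tested beside Id1 was called, and Smad7 had a log2 fold change of -0.0069 (SE 0.29, adjusted p = 0.991). Of 5 genes of the interleukin 6 and activin arm tested, Inhbb, the activin B subunit gene, rose by 0.89 (adjusted p = 0.0211). The calls for Lcn2, Slc11a1 and Hmox1 were kept in all 19 alternative settings, whereas those for Abcg2, Inhbb, Alas2, Steap3 and Fgl1 were lost in 4, 5, 7, 9 and 10 settings, with adjusted p-values of up to 0.265, 0.0851, 0.135, 0.385 and 0.163.

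Trf, the transferrin gene, averaged 333 ± 72.1 FPKM in CCl4 livers and 219 ± 24.7 FPKM in oil livers (adjusted p = 0.518). Cp, which encodes the ferroxidase ceruloplasmin that works beside ferroportin, averaged 296 ± 29.6 FPKM in CCl4 livers and 152 ± 44.3 FPKM in oil livers (0.98, adjusted p = 0.0631; 0.0440 with the replicate block). Slc39a14, an importer of iron not bound to transferrin, and Bmp2, a further endothelial BMP ligand, had log2 fold changes of 0.13 and -0.17 (adjusted p = 0.848 and 0.725). None of these 4 passed the test. With every library rescaled to a common sum of FPKM, the median of all genes moved by 0.57 and the called genes split 2406 higher and 226 lower, against 1058 and 708. Relative to that median the Id1 log2 fold change was then 1.67, and Hfe, Fth1, Ftl1 and Bmp6, all uncalled, turned to positive values.

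**Figure D2:**
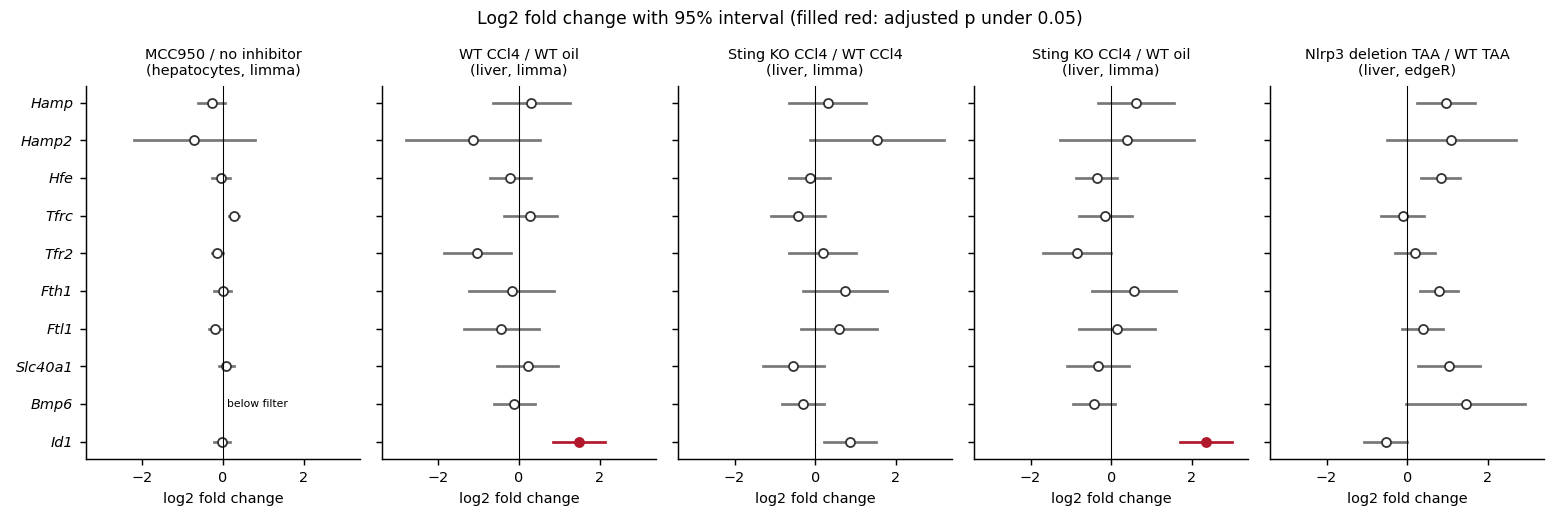
Log2 fold change (horizontal axes) of each gene with its 95% interval in the 5 comparisons, from limma on FPKM for 4 of them and edgeR on counts for TAA. Filled red marks an adjusted p under 0.05, reached by Id1 in both CCl4 groups against oil and by no other member.

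Livers labelled Sting knockout were next compared with wild-type livers, both after CCl4. No member and no other gene of 11511 was called (0.0%; 366 genes had an unadjusted p under 0.05, and edgeR on recovered reads called 0 and DESeq2 8). Id1 was at 32.4, 34.5 and 30.9 FPKM in livers labelled Sting knockout against 12.7, 21.3 and 19.2 FPKM in wild-type CCl4 livers. The groups did not overlap, which held for 5.13% of all genes (2.35% higher and 2.78% lower) and for no other member. The log2 fold change was 0.87 with a 95% interval of 0.23 to 1.51 and an adjusted p of 0.761, over all settings 0.395 to 1.00, so this difference was not called.

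Of the hepcidin genes, Hamp overlapped between the groups and Hamp2 was spread widely among the libraries labelled Sting knockout. Hamp was at 1092, 2004 and 1862 FPKM there against 685, 1595 and 1936 FPKM in wild-type CCl4 livers (log2 fold change 0.31, 95% interval -0.64 to 1.27, adjusted p = 0.811). Hamp2 was at 29.0, 133 and 12.1 FPKM against 8.40, 6.29 and 30.2 FPKM in wild-type CCl4 livers (1.54, adjusted p = 0.761). Replicate 2 of the label, which stood apart in Alb, held the highest Hamp2, and without it the Hamp2 log2 fold change was 0.62. That library also held the highest Fth1 and Ftl1 of the table. Fth1 was at 2036, 6468 and 1759 FPKM in livers labelled Sting knockout against 1953, 1929 and 1313 FPKM in wild-type CCl4 livers (0.74, adjusted p = 0.761, and 0.15 without that library). Ftl1 was at 1262, 1985 and 764 FPKM against 1121, 994 and 507 FPKM in wild-type CCl4 livers (0.59, adjusted p = 0.761, and 0.25 without it).

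The other members also overlapped between these 2 groups. Tfr2 was at 65.7, 70.2 and 56.3 FPKM in livers labelled Sting knockout against 88.8, 68.1 and 28.8 FPKM in wild-type CCl4 livers, and Hfe at 15.6, 17.5 and 12.9 FPKM against 20.2, 13.8 and 17.1 FPKM in wild-type CCl4 livers. Tfrc was at 7.71, 5.66 and 6.28 FPKM in livers labelled Sting knockout against 7.58, 6.69 and 14.5 FPKM in wild-type CCl4 livers. Slc40a1 was at 19.4, 14.3 and 17.4 FPKM in livers labelled Sting knockout against 42.7, 14.7 and 24.7 FPKM in wild-type CCl4 livers. Bmp6 was at 1.46, 0.832 and 2.02 FPKM in livers labelled Sting knockout against 2.55, 2.08 and 1.34 FPKM in wild-type CCl4 livers. Across the 10 members the adjusted p was 0.761 to 0.870. None of the 69 further iron and heme genes tested was called, and the named ones among them had adjusted p-values of 0.761 or more. Red cell markers summed to 1893 to 3051 FPKM in livers labelled Sting knockout against 271 to 1093 FPKM in wild-type CCl4 livers, and their part in these values was not tested.

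Against oil, the livers labelled Sting knockout differ in label and treatment together, and they share the oil libraries with the CCl4 comparison above. Id1 was again the 1 member called of 10, beside 13.9% of 11511 genes called in either direction (8.0% higher and 5.91% lower). It was at 32.4, 34.5 and 30.9 FPKM in livers labelled Sting knockout and at 7.87, 6.13 and 3.47 FPKM in oil livers (log2 fold change 2.35, SE 0.29, 95% interval 1.71 to 3.0, adjusted p = 0.00071). The call was kept in all 19 alternative settings, and without the library that stood apart the log2 fold change was 2.31 (adjusted p = 0.00282). In livers labelled Sting knockout dividing-cell markers summed to 61.4 to 84.5 FPKM and stellate cell markers to 228 to 399 FPKM, above all oil livers. Their part in the Id1 value was not tested. Hamp had a log2 fold change of 0.61 (95% interval -0.34 to 1.57, adjusted p = 0.391).

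Tfr2 was at 65.7, 70.2 and 56.3 FPKM in livers labelled Sting knockout and at 118, 124 and 104 FPKM in oil livers, without overlap but short of the threshold (-0.84, adjusted p = 0.173; 0.0387 without wild-type CCl4 replicate 3, which enters only through the shared spread and where 7.17% of genes were called lower). Hfe was also lower without overlap and not called (-0.36, adjusted p = 0.341). These are 3 of 10 members without overlap, counting Id1, against 37.6% of all genes (17.8% higher and 19.8% lower). Hamp2, Fth1 and Ftl1 overlapped, and without the library that stood apart their log2 fold changes were -0.52, -0.029 and -0.19, against 0.40, 0.56 and 0.15 with it. Of the 69 further iron and heme genes tested 5 were higher and none lower, beside 8.0% and 5.91% of all genes. The 5 were Lcn2 (4.46, adjusted p = 0.00409), Hmox1 (1.49, adjusted p = 0.0348), Slc11a1 (1.20, adjusted p = 0.0224), Steap2 (0.84, adjusted p = 0.024) and Fgl1 (1.43, adjusted p = 0.0446). The call for Lcn2 was kept in all 19 alternative settings, and those for Fgl1, Steap2, Slc11a1 and Hmox1 were each lost in at least 6, with adjusted p-values of up to 0.144, 0.0857, 0.0879 and 0.138. In 3 settings each, Tmprss6 was called lower (adjusted p down to 0.0390; 0.0488 with the replicate block and 0.0488 without wild-type CCl4 replicate 3) and Trf higher (down to 0.00349). Without oil replicate 1 and without oil replicate 3 the Lcn2 log2 fold change was 3.48 and 5.20. Recruited macrophage markers summed to 636 to 849 FPKM in livers labelled Sting knockout and 117 to 158 FPKM in oil livers, and red cell markers to 1893 to 3051 FPKM against 349 to 968 FPKM in oil livers. Their part in these values was not tested.

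**Figure D3:**
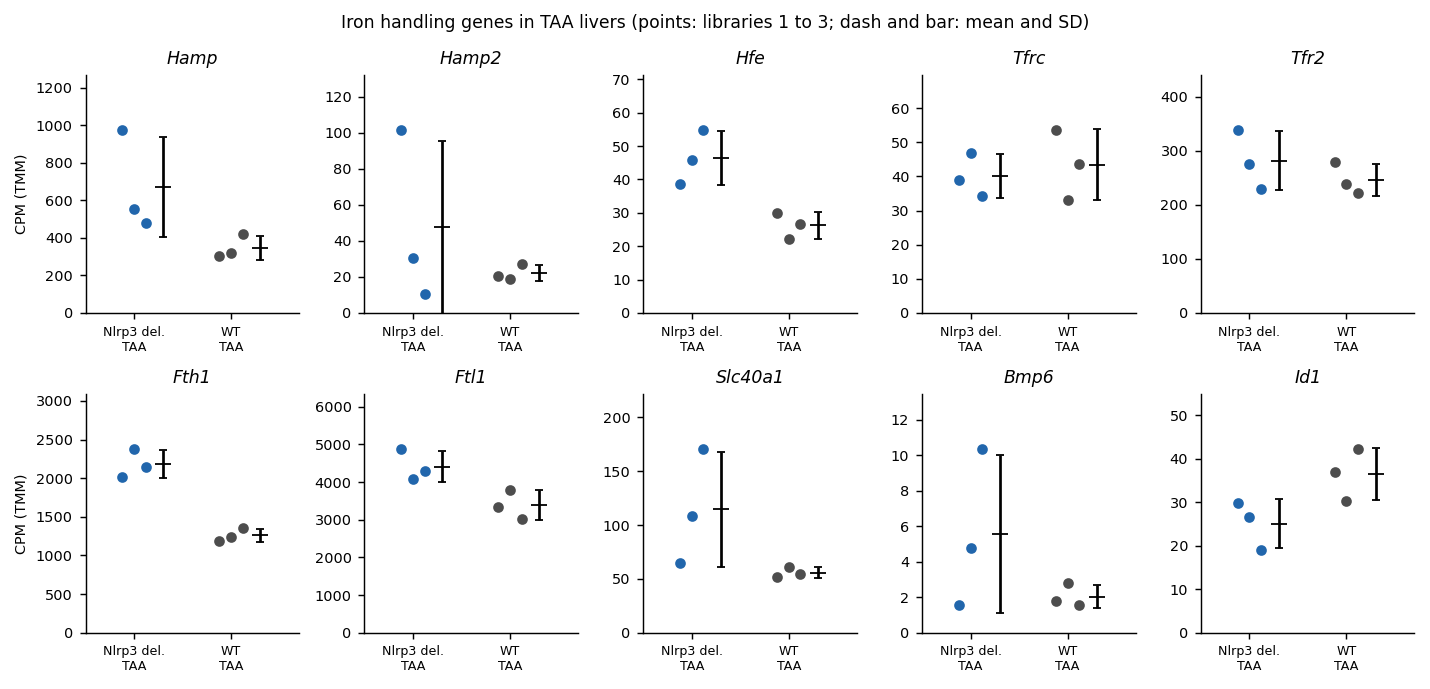
Depth-scaled counts (CPM) after TMM normalization (vertical axes from 0) of the 10 genes in the TAA table, with livers labelled Nlrp3△Hep on the left and wild-type livers on the right. Points are libraries and the dash and bar are mean and SD, cut off at 0. Hfe, Fth1, Ftl1, Hamp and Slc40a1 lie higher without overlap in livers labelled Nlrp3△Hep and Id1 lower.

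The TAA table compares livers labelled Nlrp3△Hep with wild-type livers, all injured. The TMM scaling factors were 1.088, 1.193 and 1.126 in livers labelled Nlrp3△Hep and 0.9891, 0.7285 and 0.9489 in wild-type livers. Depth and TMM factors thus both separated the groups, and their part in the values below was not tested. No member passed edgeR's test (adjusted p 0.0636 to 0.769), beside 1.73% of 18619 genes called in either direction (1.37% higher and 0.36% lower). The groups were nevertheless apart in 6 of 10 members on the TMM scale of the fit, 5 higher and 1 lower, where 36.3% of all genes did not overlap (17.5% higher and 18.7% lower). The members' median log2 fold change was 0.81, with 8 positive and 2 negative, against -0.04 over all genes tested and 0.35 over 74 further iron and heme genes.

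Hamp was at 978, 554 and 482 CPM in livers labelled Nlrp3△Hep against 301, 320 and 420 CPM in wild-type livers. The lowest library labelled Nlrp3△Hep was close to the highest wild-type one. The log2 fold change was 0.95 (SE 0.31, 95% interval 0.23 to 1.67, adjusted p = 0.0976). Hamp2 was at 102, 30.3 and 10.4 CPM in livers labelled Nlrp3△Hep against 20.4, 18.9 and 27.4 CPM in wild-type livers, so that 1 library carried the higher mean (1.09, adjusted p = 0.327, and -0.12 without replicate 1 labelled Nlrp3△Hep).

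Among the inputs to hepcidin, Hfe was at 38.7, 45.9 and 55.0 CPM in livers labelled Nlrp3△Hep against 30.1, 22.0 and 26.8 CPM in wild-type livers (0.82, SE 0.21, adjusted p = 0.0641). Tfr2 was at 339, 275 and 230 CPM against 278, 239 and 221 CPM in wild-type livers and overlapped (0.19, adjusted p = 0.594). Bmp6 was at 1.55, 4.78 and 10.3 CPM in livers labelled Nlrp3△Hep against 1.79, 2.77 and 1.55 CPM in wild-type livers (1.45, adjusted p = 0.179), on 47 to 802 counts per library. Its 3 values in livers labelled Nlrp3△Hep were far apart, and endothelial markers, which summed to 36.0 to 72.6 FPKM in livers labelled Nlrp3△Hep and 30.0 to 33.1 FPKM in wild-type livers, were highest in the library with the highest Bmp6. Id1 was at 29.8, 26.5 and 19.0 CPM in livers labelled Nlrp3△Hep against 36.9, 30.2 and 42.2 CPM in wild-type livers, all lower (-0.54, 95% interval -1.07 to -0.00092, adjusted p = 0.173). On the deposited FPKM scale Id1 overlapped, at 22.47, 22.5 and 15.37 FPKM in livers labelled Nlrp3△Hep against 25.69, 15.5 and 27.95 FPKM in wild-type livers.

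Of the storage and export genes, Fth1 was at 2021, 2373 and 2148 CPM in livers labelled Nlrp3△Hep against 1188, 1232 and 1355 CPM in wild-type livers. The gap between the groups was wider than the spread within either, and the log2 fold change was 0.79 (SE 0.20, adjusted p = 0.0636). Ftl1 was at 4868, 4072 and 4283 CPM against 3329, 3802 and 3027 CPM in wild-type livers (0.38, adjusted p = 0.290). Slc40a1 was at 65.0, 108 and 170 CPM against 51.4, 61.1 and 54.7 CPM in wild-type livers, with the lowest value labelled Nlrp3△Hep next to the wild-type range (1.04, adjusted p = 0.095). Tfrc, the uptake receptor, was at 38.8, 47.0 and 34.4 CPM against 53.8, 33.1 and 43.5 CPM in wild-type livers (-0.12, adjusted p = 0.769).

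The calls in the TAA table depended on the tool and on 1 library. DESeq2 on the same counts called Hamp, Hfe, Fth1 and Slc40a1 higher (adjusted p = 0.0223, 0.0128, 0.000378 and 0.0269), where it called 11.4% of all genes higher. Limma on log2(FPKM + 1) called these 4 and Ftl1 higher, where it called 21.7% of all genes higher and the median of all genes was at 0.33. Without replicate 1 labelled Nlrp3△Hep, edgeR called Hamp, Hfe, Fth1, Slc40a1 and Bmp6 higher and Id1 lower, where 17.9% of genes were called higher and 20.0% lower. Without any other library no member was called.

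Among 74 further iron and heme genes tested after TAA, 1 was called. Trf, the transferrin gene and a hepatocyte secretory product, was at 8372, 11859 and 13140 CPM in livers labelled Nlrp3△Hep against 3213, 3606 and 3484 CPM in wild-type livers (log2 fold change 1.70, SE 0.26, adjusted p = 0.0487; called in 5 of 12 alternative settings, with adjusted p-values of 1.87e-09 to 0.196). Tmprss6 was at 232, 270 and 320 CPM against 146, 161 and 125 CPM in wild-type livers (0.93, adjusted p = 0.0536). It was called higher in 5 of 12 alternative settings, with adjusted p-values of 0.00158 to 0.197. Hjv was at 143, 67.2 and 49.1 CPM against 148, 162 and 139 CPM in wild-type livers (-0.79, adjusted p = 0.203). Lcn2, Hmox1 and Cp had log2 fold changes of 1.15, 1.00 and 0.54 (adjusted p = 0.103, 0.129 and 0.204), and Slc39a14, Bmp2 and Smad7 of -0.24, 0.25 and -0.06 (adjusted p = 0.450, 0.650 and 0.864). Of the 74, 23 were higher and 4 lower without overlap on the TMM CPM scale, where 17.5% and 18.7% of all genes were.

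Marker sums of several cell types, given in FPKM, also differed between the groups. The 10 hepatocyte markers summed to 40978 to 43657 FPKM in livers labelled Nlrp3△Hep against 17638 to 20368 FPKM in wild-type livers, with none at 0, and 1 of 10 was called higher. On the TMM scale their median log2 fold change was 0.68, beside 0.88 for endothelial, 0.72 for Kupffer cell and 0.70 for recruited macrophage markers, none of which was called. Alb alone was at 15016 to 23354 FPKM in livers labelled Nlrp3△Hep against 4926 to 5674 FPKM in wild-type livers. Kupffer cell markers summed to 158 to 334 FPKM against 116 to 134 FPKM in wild-type livers, and recruited macrophage markers to 53.0 to 257 FPKM against 38.6 to 52.7 FPKM in wild-type livers. Among livers labelled Nlrp3△Hep, replicate 1 held the lowest Kupffer cell and recruited macrophage sums. In CPM it held the highest Hamp and Ftl1 and the lowest Hfe, Fth1, Slc40a1 and Trf of that label. Red cell markers summed to 172 to 417 FPKM in livers labelled Nlrp3△Hep against 87.2 to 133 FPKM in wild-type livers. Their part in the values of Hamp, Hfe, Trf, Slc40a1 and the ferritin genes was not tested.

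**Figure D4:**
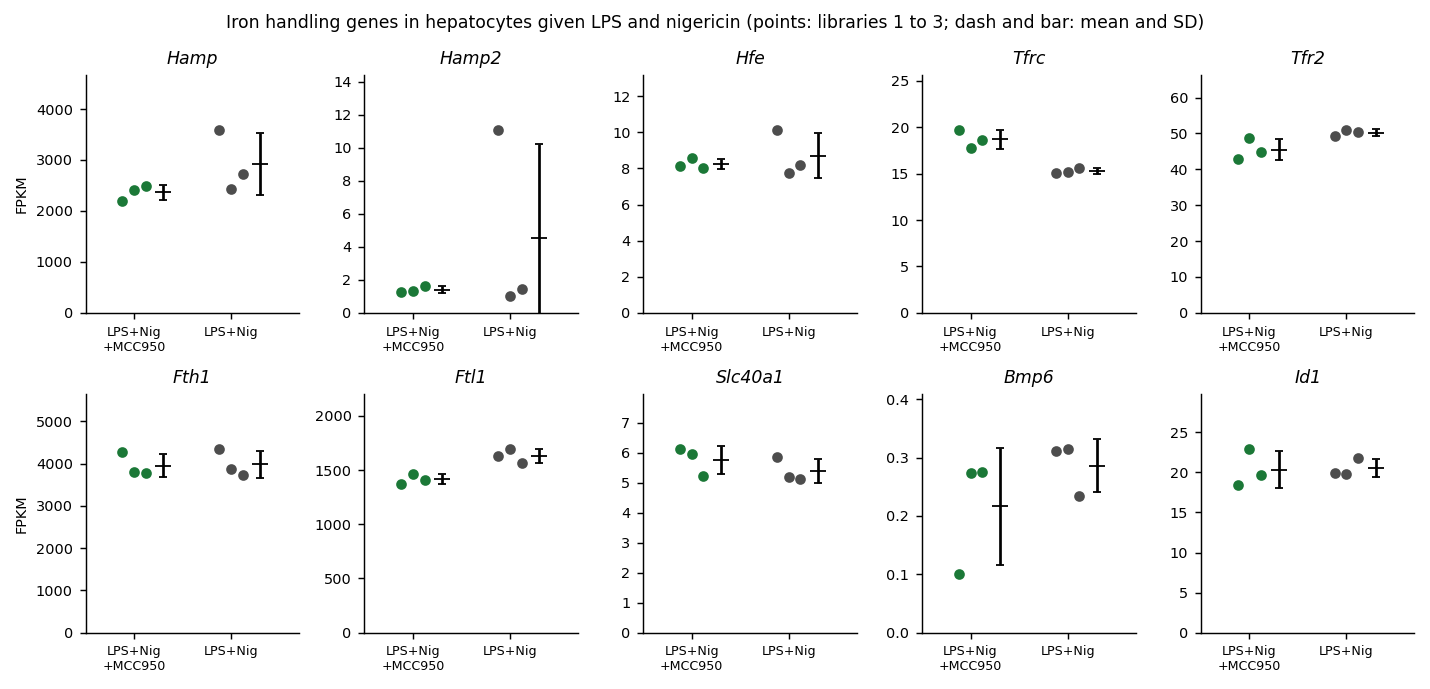
FPKM of the 10 genes (vertical axes from 0) in hepatocytes given LPS and nigericin, with MCC950 on the left and without it on the right. Points are libraries and the dash and bar are mean and SD, cut off at 0. Tfrc lies higher (17.7 to 19.8 against 15.0 to 15.6 FPKM) and Tfr2 and Ftl1 lie lower with MCC950, without overlap.

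MCC950 in stimulated hepatocytes gave small differences. Of the 10 members 9 entered the fit and none was called, beside 0.0% of 9835 genes (1168 had an unadjusted p under 0.05, edgeR on recovered reads called 0, and DESeq2 called 16). Their median log2 fold change was -0.06 and that of all genes -0.01. Tfrc was at 19.8, 17.7 and 18.6 FPKM with MCC950 against 15.0, 15.2 and 15.6 FPKM without it. The groups were apart, with a log2 fold change of 0.28 (95% interval 0.15 to 0.40, adjusted p = 0.390). DESeq2 on recovered reads called it (0.30, adjusted p = 0.0307), where 0.0415% of genes were called higher.

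Tfr2 was at 43.0, 48.7 and 44.8 FPKM with MCC950 against 49.2, 51.1 and 50.4 FPKM without it, and Ftl1 at 1374, 1463 and 1409 FPKM against 1632, 1691 and 1561 FPKM without it. Both were lower without overlap, by -0.14 and -0.20 on the log2 scale (adjusted p = 0.417 and 0.390). Together with Tfrc these are 3 of 9 members without overlap, against 19.7% of all genes (8.88% higher and 10.8% lower). Fth1 was at 4263, 3803 and 3785 FPKM with MCC950 against 4335, 3877 and 3723 FPKM without it, a log2 fold change of -0.0093 with an interval from -0.21 to 0.19.

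Hamp was at 2201, 2403 and 2485 FPKM with MCC950 against 3598, 2427 and 2720 FPKM without it (-0.28, 95% interval -0.63 to 0.06, adjusted p = 0.457). Hamp2 had 13, 14 and 17 reads with MCC950 against 96, 10 and 14 reads without it, and replicate 1 without inhibitor was also the highest for Hamp. Hfe was at 8.16, 8.58 and 8.04 FPKM with MCC950 against 10.2, 7.77 and 8.20 FPKM without it. Slc40a1 was at 6.11, 5.95 and 5.23 FPKM against 5.85, 5.20 and 5.11 FPKM without it, and Id1 at 18.4, 22.9 and 19.7 FPKM against 20.0, 19.8 and 21.8 FPKM without it. Bmp6 fell below the filter, at 0.101, 0.274 and 0.275 FPKM with MCC950 against 0.311, 0.314 and 0.234 FPKM without it, on 7 to 20 reads per library (exact permutation p = 0.5, where the smallest possible is 0.1).

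None of 61 further iron and heme genes tested in hepatocytes was called. Lcn2 averaged 2476 ± 168 FPKM with MCC950 and 2396 ± 534 FPKM without it (SD, n = 3 each; log2 fold change 0.07, adjusted p = 0.860), a level like that of Hamp. Tmprss6 averaged 65.3 ± 0.041 FPKM with MCC950 and 74.9 ± 1.89 FPKM without it (-0.20, adjusted p = 0.390), and Hjv 9.92 ± 0.469 FPKM and 11.7 ± 0.498 FPKM without it (-0.22, adjusted p = 0.390). Trf, Slc39a14, Cp, Hmox1 and Smad7 had adjusted p-values of 0.459 to 0.992, and Bmp2, at 0 to 5 reads, was below the filter. Il6 was listed at 0 in all 6 libraries.

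**Figure D5:**
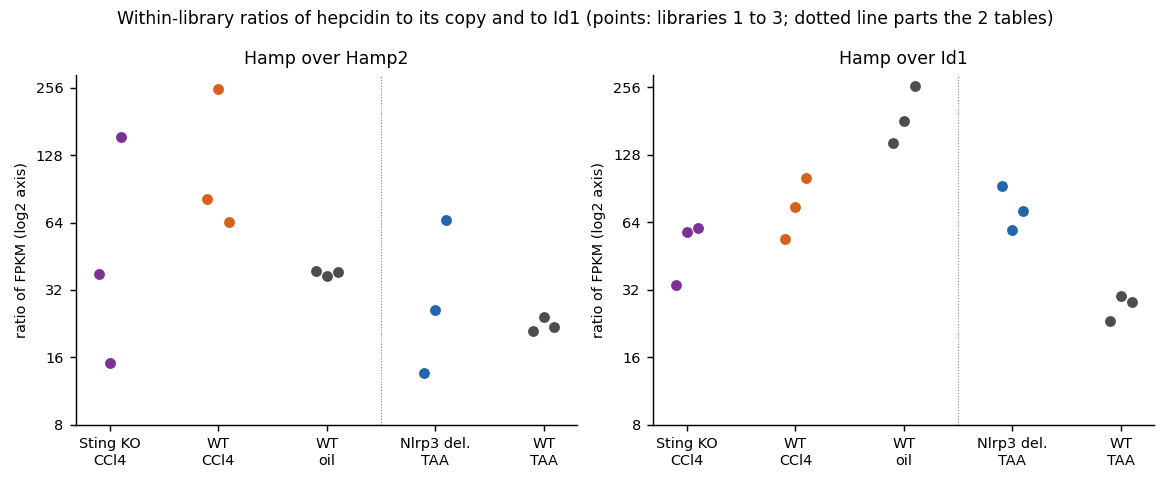
Ratio of Hamp to Hamp2 and of Hamp to Id1 within each library (log2 axes), for the CCl4 table left of the dotted line and the TAA table right of it, with oil and wild-type TAA livers rightmost in their tables. Hamp over Id1 lies at 53.9 to 101 in wild-type CCl4 livers, below the oil livers, and at 59.2 to 92.9 in livers labelled Nlrp3△Hep, above wild-type TAA livers.

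Ratios within a library do not depend on how the library was scaled. Hamp was 53.9, 74.8 and 101 times Id1 in wild-type CCl4 livers and 145, 181 and 259 times Id1 in oil livers, so all CCl4 livers were lower. In livers labelled Sting knockout the ratio was 33.7, 58.2 and 60.2, also below all oil livers. In the TAA table the ratio was 92.9, 59.2 and 71.9 in livers labelled Nlrp3△Hep and 23.1, 30.0 and 28.2 in wild-type livers, so all livers labelled Nlrp3△Hep were higher. The log2 differences were -1.35, -1.95 and 1.45. Each had p = 0.1 in a two-sided exact permutation test, and 3 against 3 libraries can give no smaller value. After Benjamini-Hochberg adjustment over 20 ratio tests the smallest value was 0.4, so no ratio was called.

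Hamp over Hamp2 was nearly constant in oil livers, whereas it varied after CCl4. It was 81.6, 254 and 64.2 in wild-type CCl4 livers against 38.9, 36.8 and 38.3 in oil livers, without overlap (log2 difference 1.53, exact permutation p = 0.1), and 37.6, 15.1 and 154 in livers labelled Sting knockout. Tfrc over Tfr2 was 0.459, 0.364 and 0.416 in hepatocytes with MCC950 against 0.306, 0.297 and 0.309 without it (0.44, exact permutation p = 0.1). Fth1 over Ftl1 overlapped between the groups in all 5 comparisons.

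Genes whose pattern over the 9 libraries of the CCl4 table was most like that of a member are given as a description of libraries that share groups and processing. Of 11511 genes, Dync2li1 (Pearson r = 0.908), Cavin3 (0.908), Tial1 (0.905), Ncbp2 (0.897) and Pomk (0.879) were closest to Hamp. Snx4 (0.970), Lrat (0.956), Mindy2 (0.948), Calcrl (0.948) and Ndfip2 (0.940) were closest to Tfrc. Iigp1 (0.959), the macrophage hemoglobin scavenger receptor gene Cd163 (0.953), Tnfsf10 (0.944), G3bp2 (0.942) and the pseudogene Gm6545 (0.937) were closest to Slc40a1. Among the members themselves the highest correlation was that of the ferritin chains Fth1 and Ftl1 (0.813), and Hamp and Id1 had 0.622.

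Copies named Fth or Ftl, which could share reads with the ferritin genes, were low, and copies under other names were not searched. Of 14 further genes named Fth or Ftl in the CCl4 and the hepatocyte tables, 10 and 11 were at 0 in every library, and the highest value was 32.5 FPKM and 30.0 FPKM. TAA libraries listed 4 such genes, with a highest value of 52.1 FPKM. These levels are below those of Ftl1, which was at least 507 FPKM in every library, and of Fth1, which was at least 211 FPKM. How reads were shared among copies was not tested.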

How the data were processed

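Expression was read by RNA-seq in 21 libraries, with RNA taken by TRIzol, per the labels' protocols. Per the submitters' processing notes, the tools were HISAT2 2.2.1 and featureCounts 1.5.0-p3 and the build mm10, with neither roles nor strand setting given. The authors deposited raw counts and FPKM for TAA livers, per the file headers, and FPKM only for the CCl4 and hepatocyte tables. There, dividing out length and each library's smallest step left whole reads for 100% of values above 0 (within 0.05). The authors' scaling of FPKM is not stated, did not give equal sums, and was kept as deposited. In the CCl4 table it was not by recovered reads alone. Library totals implied by FPKM were 15220054, 13081500 and 10679213 in oil livers, below their 16684832, 15772813 and 14353483 recovered reads. In wild-type CCl4 livers they were 18171382, 19080241 and 18593953, above their 16659576, 16357783 and 16012226 recovered reads. In livers labelled Sting knockout they were 17258577, 12937290 and 19340886, against 16608145, 15719644 and 15912088 recovered reads. FPKM of oil livers and of replicate 2 labelled Sting knockout were thus raised relative to depth.

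The 10 genes, 77 further iron and heme genes and 9 marker lists were chosen with earlier results of these data known, and the named genes are the 10 members, 9 further genes in every comparison, up to 3 called genes a list with the largest change, and the 5 genes most like Hamp, Tfrc and Slc40a1. All 10 were matched by name; Hjv was matched by Ensembl ID where listed as Hfe2, and Ftmt was not matched in the TAA table. Genes averaging 1 FPKM or more in the CCl4 and hepatocyte tables were fitted on log2(FPKM + 1) with limma 3.58.1 (trend on), with 1 common fit for oil and both CCl4 groups. This scale understates changes of low genes such as Bmp6. TAA counts were tested with edgeR 4.0.16 (quasi-likelihood, TMM, filterByExpr), and counts scaled to CPM with TMM factors are printed. Tests were two-sided, adjusted by Benjamini-Hochberg over all genes tested and called under 0.05; exact permutation tests used scipy 1.17.1. Tests were checked on simulated data. R was 4.3.3 and DESeq2, an alternative, 1.42.0. Alternatives changed the pseudocount, filter, scaling, trend, tool, groups fitted, replicate block and libraries; leaving libraries out of the ratios was chosen after seeing the data.

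Same-numbered libraries deviated together for CCl4 against oil (correlations 0.225, 0.319 and 0.516) and for the labelled Sting knockout against wild type (0.189, 0.176 and 0.12). Correlations were also positive for MCC950 (0.179, 0.218 and 0.085) and for the labelled Sting knockout against oil (0.0223, 0.179 and 0.0929). Under TAA they were 0.075, -0.0356 and -0.0242. Other orderings of the libraries were not compared, so these values do not establish a pairing, and no label ties equal numbers to a litter or day. Promoters (RefSeq, 8 of 10 members matched) and transcripts (GENCODE) are on GRCm38, the build also called mm10.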

Additional observations from a re-analysis of the deposited data

How the results depend on the processing

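Of 816 alternative values for members, 769 kept direction and side of the threshold, 29 reversed, 18 passed the threshold newly and 0 lost it; the cause was not tested. With the replicate number as a block, the members called stayed at 0 for MCC950, 1 for CCl4 against oil, 0 for the labelled Sting knockout against wild type, 1 for it against oil and 0 under TAA, where the block left 2 genes called in all. DESeq2 called 1 member for MCC950 and 4 under TAA, and limma on log2(FPKM + 1) called 5 under TAA. Leaving out 1 library gave 1 to 2 members for CCl4 against oil, 1 to 2 for the labelled Sting knockout against oil and 0 to 6 under TAA. Under TAA the main test called 322 genes, RLE factors 1, no filter 1593, DESeq2 3640, limma 2642 and leaving out mitochondrial, rRNA and pseudogene counts 699. For CCl4 against oil 1766 genes were called, 877 at a mean of at least 5 FPKM, 2790 with edgeR and 3526 with DESeq2 on recovered reads. For the labelled Sting knockout against oil these were 1601, 829, 2436 and 3213.

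Directions that reversed belonged to uncalled values. Rescaled to a common sum, log2 fold changes were 0.033 for Fth1 and 0.023 for Id1 with MCC950; 0.37 for Hfe, 0.44 for Fth1, 0.18 for Ftl1, 0.35 for Bmp6, 0.40 for Bmp2 and 0.52 for Smad7 with CCl4 against oil; -0.11 for Tfr2 and -0.034 for Tmprss6 in the labelled Sting knockout against wild type; and 0.15 for Tfrc and 0.26 for Smad7 in it against oil. Smad7 was at 0.025 with edgeR and 0.016 with DESeq2 for CCl4 against oil, and at 0.0093 with TMM rescaling in the labelled Sting knockout against wild type. Limma under TAA gave 0.22 for Tfrc, 0.12 for Slc39a14 and 0.21 for Smad7.

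Leaving out each library in turn, ranges that crossed 0 were these. With MCC950 they were Hamp2 -1.18 to 0.10, Hfe -0.13 to 0.043, Fth1 -0.065 to 0.054, Id1 -0.10 to 0.047, Lcn2 -0.030 to 0.24, Slc39a14 -0.011 to 0.018, Smad7 -0.13 to 0.026 and Hamp over Hamp2 -0.30 to 1.11. For CCl4 against oil they were Tfrc -0.028 to 0.48, Fth1 -0.28 to 0.0070, Slc40a1 -0.16 to 0.58, Bmp6 -0.26 to 0.046, Slc39a14 -0.076 to 0.33 and Smad7 -0.21 to 0.29. For the labelled Sting knockout against wild type they were Hamp -0.14 to 0.61, Tfr2 -0.28 to 0.52, Cp -0.36 to 0.0030, Lcn2 -0.65 to 0.28, Smad7 -0.31 to 0.19, Tmprss6 -0.11 to 0.48, Fth1 over Ftl1 -0.096 to 0.41 and Tfrc over Tfr2 -1.13 to 0.15. For it against oil they were Hamp2 -0.52 to 1.16, Tfrc -0.35 to 0.037, Fth1 -0.029 to 0.91, Ftl1 -0.19 to 0.50, Smad7 -0.15 to 0.16 and Hamp over Hamp2 -0.67 to 1.00. Under TAA they were Hamp2 -0.12 to 1.58, Tfrc -0.24 to 0.13, Bmp2 -0.17 to 0.47, Smad7 -0.14 to 0.054 and Hamp over Hamp2 -0.24 to 0.89.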
